A study of Mus musculus with 28 samples.

Results

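The 10 genes described here encode the glucose transporter GLUT1 (Slc2a1) and enzymes of glycolysis (Hk1, Hk2, Gpi1, Pfkl, Aldoa, Gapdh, Pgk1, Eno1 and Ldha). They were taken by gene symbol from a deposited table of expression values, as 10 of the 23015 rows kept, and all 10 passed the filter of 1 FPKM in at least 2 libraries that left 15052 genes for testing. FPKM counts sequenced fragments relative to transcript length and library size. None of the 10 was listed at 0 in any library. The study sequenced RNA of 14 cell populations sorted by flow cytometry from the back skin of mice (postnatal day 5), while the first coats of follicles grow, to compare the signals and states of neighbouring cell types. Each population had 2 libraries, which makes 28.

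All mice had a strain background labelled as mixed, from CD1, FVB/N and C57BI/6J. The K14-H2BGFP line with Lef1-RFP gave 8 populations. In it, the keratin 14 promoter drives a nuclear green protein in keratinocytes, and Lef1-RFP marks cells that use the Wnt-responsive gene Lef1. DP (dermal papilla) was sorted as Lef1-RFP+/ITGA9Hi, Mc (melanocytes) as Lef1-RFP+/CD117+, and DF (dermal fibroblasts) as Lef1-RFP+/CD117-/ITGA9-. Neg was a mixture of cells without these markers. TAC (K14-H2BGFPLo/Lef1-RFP+) was labelled as Shh-expressing matrix progenitors, Mx (matrix) as K14-H2BGFPLo, and ORS (outer root sheath) as K14-H2BGFPHi, all from dermal preparations. Epi (epidermal cells) was the K14-H2BGFP+ fraction of an epidermal preparation. Sox2-GFP mice gave G/AA-DP (Sox2-GFP+, papillae of guard and awl/auchene follicles) and ZZ-DP (Sox2-GFP-, zigzag follicles). Crabp1-GFP mice gave G-DP (Crabp1-GFP-) and AA/ZZ-DP (Crabp1-GFP+). All 4 of these papilla subtypes were also sorted as Lef1-RFP+/ITGA9Hi. K14-RFP Sox9-GFP mice gave HF-SC (hair follicle stem cell precursors, Sox9-GFP+) and HF-ORS (Sox9-GFP-), both sorted as K14-RFPHi/ITGA6Hi. The sorted populations are fractions and not pure cell types, and the labels do not say how many animals each library came from.

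Glycolysis splits glucose into pyruvate in the cytosol and yields ATP and precursors for synthesis. Glucose enters through transporters, hexokinase traps it as glucose 6-phosphate, and phosphofructokinase commits it to breakdown. Lactate dehydrogenase turns pyruvate into lactate, which leaves or enters cells through monocarboxylate transporters. The skin is known for making much lactate even with oxygen present, and hair follicle stem cells in adult mice are known to rely on lactate dehydrogenase for their activation. Many genes of the pathway are known targets of the hypoxia-inducible factors (HIF) and of Myc.

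Values below are FPKM, given as replicate 1 and replicate 2 of a population, or as mean ± SD (n = 2). FPKM sums ran from 285980.6 to 515224 per library, 10951 to 12497 genes reached 1 FPKM, and replicates correlated at 0.884 to 0.966 across genes, which are not independent measurements. FPKM keeps no depth and none could be recovered, so no counting interval is given. Whether the 2 replicates are different animals is not stated, and p-values then measure the spread between these libraries only, which may be technical. A gene was called different at an adjusted p under 0.05 in limma (Benjamini-Hochberg over all genes tested) and a difference of at least 1 in log2(FPKM + 1), a scale that understates changes of low genes. These are bulk samples, in which fewer cells of a type and less RNA per cell cannot be told apart. Replicate 1 was the higher library in 14 of 14 populations for Pfkl, in 13 for Eno1 and in 12 each for Slc2a1, Hk1, Aldoa and Gapdh, but in 8 or 9 for Hk2, Gpi1, Pgk1 and Ldha, and the part of this in the results was not tested.

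Some populations held markers that their labels do not name. HF-ORS, labelled as outer root sheath, had Krt1, a keratin of the upper epidermal layers, at 1481 and 1024 FPKM, against 7.96 and 0.55 in ORS and 3434 and 2643 in Epi. HF-SC had Krt1 at 238 and 203 FPKM. Both HF-ORS libraries had Krt1 at this level, so no value of HF-ORS without it can be given. DF held 10 of 10 melanocyte markers, summing to 1429 and 1441 FPKM, against 17306 and 14709 in Mc and 26.1 and 32.1 in DP. DF also held all 8 pericyte and smooth muscle markers, summing to 683 and 650.0 FPKM, against 46.6 and 50.5 in DP. Skeletal muscle markers, a possible source of glycolytic transcripts, summed to 14.1 FPKM at most.

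The stretch before a gene's start is where HIF and Myc would be looked for, and 4 genes are shown: Slc2a1, which had the widest range of levels, the hexokinase genes Hk1 and Hk2, which were called in opposite directions in DP against TAC, and Ldha, which had the most matches. RefSeq entries of GRCm38.p6 (mm10) were found for 10 of 10 genes, and the 250 bases upstream of the listed start nearest to the deposited one were read 5′ to 3′ on the gene's strand. Capitals mark ACGTG or GCGTG on either strand, which reads CACGT or CACGC on the other one. These letters are the core of the HIF response element, and ACGTG also lies within CACGTG, a Myc-binding E-box, on both strands. Hk1 is shown as the hexokinase gene with no match. The windows are chr4:119108495-119108744 (+) for Slc2a1, chr10:62379909-62380158 (-) for Hk1, chr6:82774455-82774704 (-) for Hk2 and chr7:46845554-46845803 (+) for Ldha.
Slc2a1: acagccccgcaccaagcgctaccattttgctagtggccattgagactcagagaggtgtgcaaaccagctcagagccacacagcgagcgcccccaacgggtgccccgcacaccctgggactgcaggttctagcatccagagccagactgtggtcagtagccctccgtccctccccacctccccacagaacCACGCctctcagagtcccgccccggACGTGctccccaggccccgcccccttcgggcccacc
Hk1: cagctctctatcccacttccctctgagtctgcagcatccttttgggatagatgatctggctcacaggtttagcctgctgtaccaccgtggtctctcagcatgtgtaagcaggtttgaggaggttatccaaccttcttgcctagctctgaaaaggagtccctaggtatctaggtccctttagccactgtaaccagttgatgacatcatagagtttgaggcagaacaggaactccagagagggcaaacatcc
Hk2: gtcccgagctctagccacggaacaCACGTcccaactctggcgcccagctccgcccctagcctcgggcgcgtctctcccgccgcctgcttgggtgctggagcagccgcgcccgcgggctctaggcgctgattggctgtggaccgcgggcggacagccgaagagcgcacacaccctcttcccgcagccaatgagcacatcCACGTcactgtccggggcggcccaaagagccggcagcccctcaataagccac
Ldha: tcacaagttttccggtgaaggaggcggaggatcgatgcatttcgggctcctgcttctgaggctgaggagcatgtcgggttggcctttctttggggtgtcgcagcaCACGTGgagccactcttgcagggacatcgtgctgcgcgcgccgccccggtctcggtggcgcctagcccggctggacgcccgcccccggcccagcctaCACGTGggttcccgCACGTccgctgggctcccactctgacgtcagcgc

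At least 1 match lay in 7 of the 10 windows, and in 38.6% of 32851 RefSeq promoters of the same length. Slc2a1 had 1 match of each kind, which began 61 and 36 bases before the start, and Hk2 had ACGTG at 226 and 52. Ldha had 5 matches, 4 of which were both strands of 2 CACGTG, a motif held by 6.02% of promoters, while 3 or more matches were held by 6.58%. Gapdh, Pgk1 and Eno1 had 2 matches each, and Pfkl had 1. Hk1, Gpi1 and Aldoa had none in these windows, which says nothing of other regulatory sequence. The windows are a description and no measure of factor binding.

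All 10 genes differed among the 14 populations in limma's F-test (adjusted p from 1.96e-10 for Slc2a1 upward), as did 61.7% of all genes tested. All 10 also differed among the 8 populations of the K14-H2BGFP line, as did 48.9% of genes. Mc was the highest population for 7 of the 10 genes (Hk2, Gpi1, Aldoa, Gapdh, Pgk1, Eno1 and Ldha), Epi for Slc2a1, DP for Pfkl and HF-ORS for Hk1. The 10 genes together summed to 2429 and 2141 FPKM in Mc, which was the highest sum. In AA/ZZ-DP they summed to 677 and 578, the lowest by mean, although DF replicate 2 was at 606. The low end depended on Gapdh. Without it the sums were 349 and 335 in TAC and 381 and 322 in DF, against 422 and 382 in AA/ZZ-DP. Mc then had 1264 and 1215. When populations were put in order of their mean, 106 of 130 neighbouring pairs over the 10 genes had overlapping libraries, so most steps in these orders were not separated. Separate steps numbered 1 to 4 per gene. An order sorted by these same means places close values side by side for any gene. The share over all genes was not counted, so these counts only describe the orders.

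**Figure D1:**
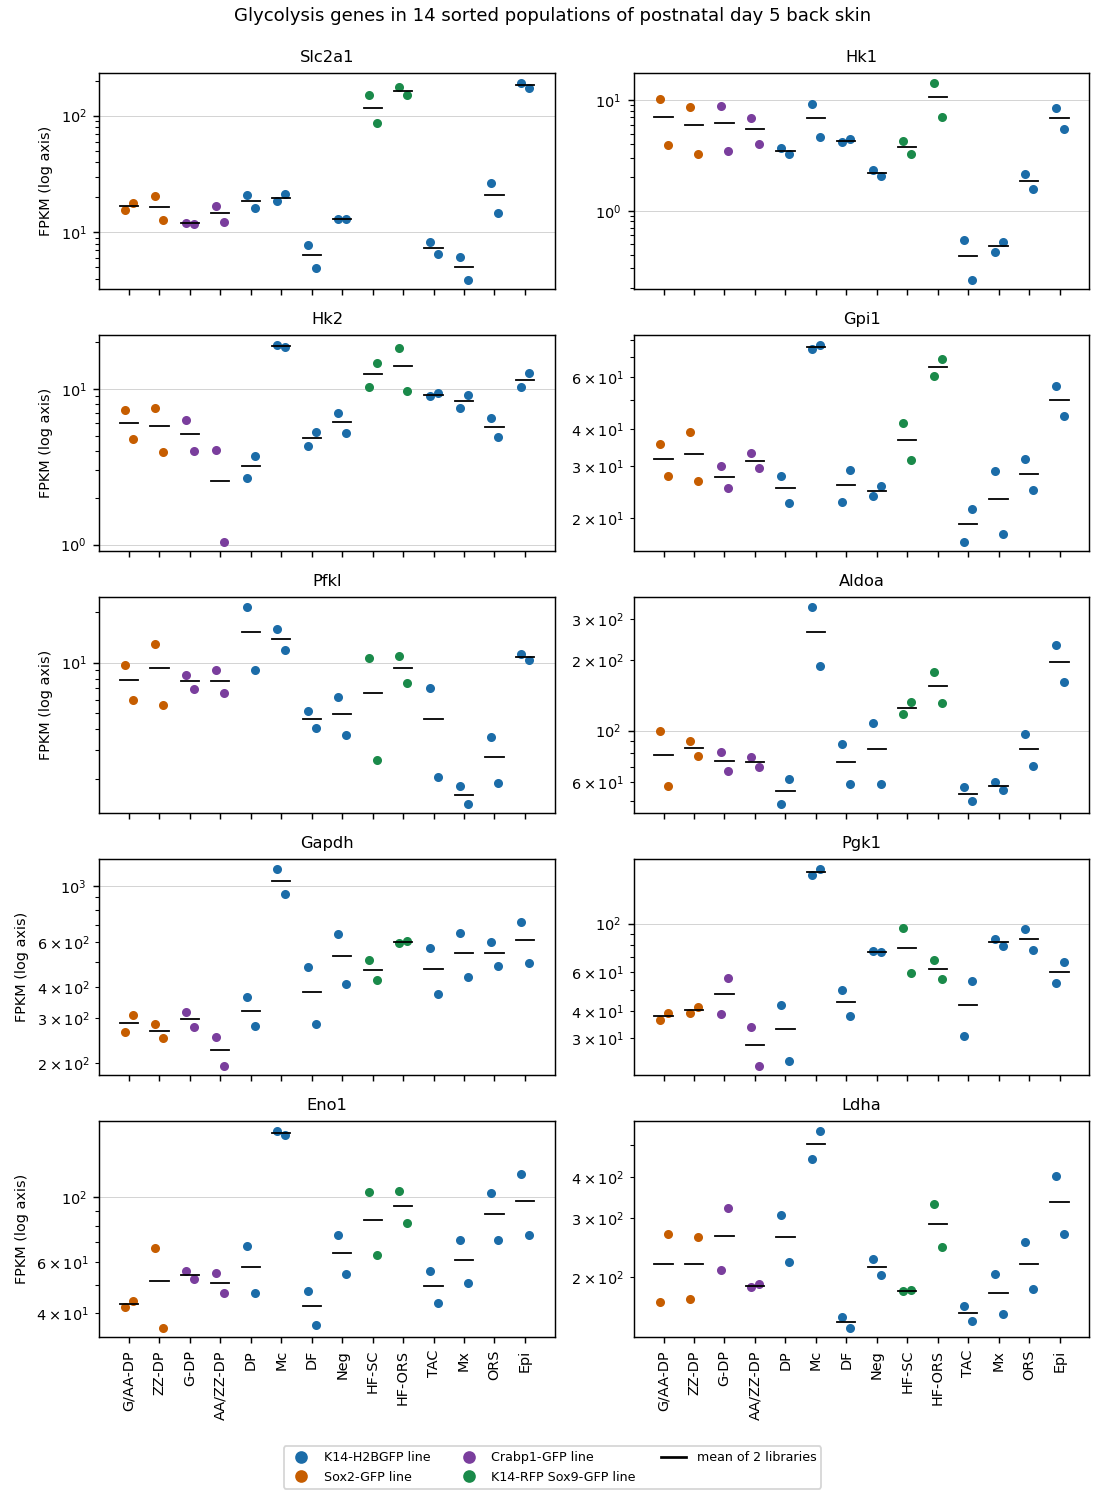
FPKM (log axis) of the 10 genes in each library of the 14 populations, with a bar at the mean of 2 libraries and colour for the mouse line. Mc stands highest for 7 genes, Slc2a1 stands above 80 FPKM in HF-SC, HF-ORS and Epi only, and Hk1 lies below 1 FPKM in TAC and Mx.

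Among the genes described here, the transcript of the glucose transporter gene Slc2a1 had the widest ratio of highest to lowest population mean. Glucose uptake itself was not measured. Slc2a1 (chr4:119108745-119137330, + strand) encodes the main glucose transporter of keratinocytes, and its mean in Epi was 36.2 times that in Mx. It was at 149 and 85.7 FPKM in HF-SC, 174 and 150.0 in HF-ORS, and 190.2 and 173 in Epi. These 6 libraries stood above the other 22, of which the highest was ORS replicate 1. The other epithelial populations had far less, at 8.19 and 6.49 FPKM in TAC, 6.11 and 3.93 in Mx, and 26.7 and 14.8 in ORS. Dermal populations were at 20.8 and 16.0 FPKM in DP, 18.6 and 21.1 in Mc, and 7.77 and 4.97 in DF. The mixture Neg, in which keratinocyte markers summed to 3169 and 2287 FPKM, was at 13.1 and 12.96. The papilla subtypes lay within the range of the dermal cells, at 15.7 and 17.7 in G/AA-DP, 20.3 and 12.7 in ZZ-DP, 12.0 and 11.9 in G-DP, and 16.9 and 12.4 in AA/ZZ-DP. In the order of means (Epi, HF-ORS, HF-SC, ORS, Mc, DP, G/AA-DP, ZZ-DP, AA/ZZ-DP, Neg, G-DP, TAC, DF, Mx), 4 of 13 steps were separate. These were HF-ORS over HF-SC, HF-SC over ORS, Neg over G-DP and G-DP over TAC.

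Hexokinase, which phosphorylates glucose, is encoded by Hk1 (chr10:62268855-62379920, - strand), the form found in most tissues, and Hk2 (chr6:82725025-82774454, - strand), the form regulated by insulin and HIF. Hk1 was at 0.54 and 0.24 FPKM in TAC and 0.42 and 0.53 in Mx, below all other libraries, and at 2.17 and 1.58 in ORS. It reached 14.3 and 7.12 FPKM in HF-ORS, 8.45 and 5.48 in Epi, and 9.18 and 4.67 in Mc. The Hk1 mean in HF-ORS was 27.5 times that in TAC, but its replicates differed by up to 2.71 times, in ZZ-DP, so only 2 of 13 steps in its order were separate.

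Hk2 was not lowest in the matrix as Hk1 was, but TAC and Mx ranked only 5 and 6 from the highest for its mean. It was at 8.95 and 9.38 FPKM in TAC, 7.49 and 9.10 in Mx, and 19.1 and 18.5 in Mc, its highest population. DP, at 2.68 and 3.68 FPKM, and AA/ZZ-DP, at 4.05 and 1.05, were the lowest. Hk2 made up 94.3% and 97.5% of the summed Hk1 and Hk2 FPKM in TAC, 94.6% and 94.5% in Mx, and 75.0% and 75.7% in ORS. In the other direction its share was 42.0% and 53.1% in DP and 36.9% and 20.7% in AA/ZZ-DP. FPKM is per length, so such shares compare transcripts and not enzyme amounts. Hk3 and Hkdc1, the remaining hexokinase genes in the files, were at or near 0 in most libraries.

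**Figure D2:**
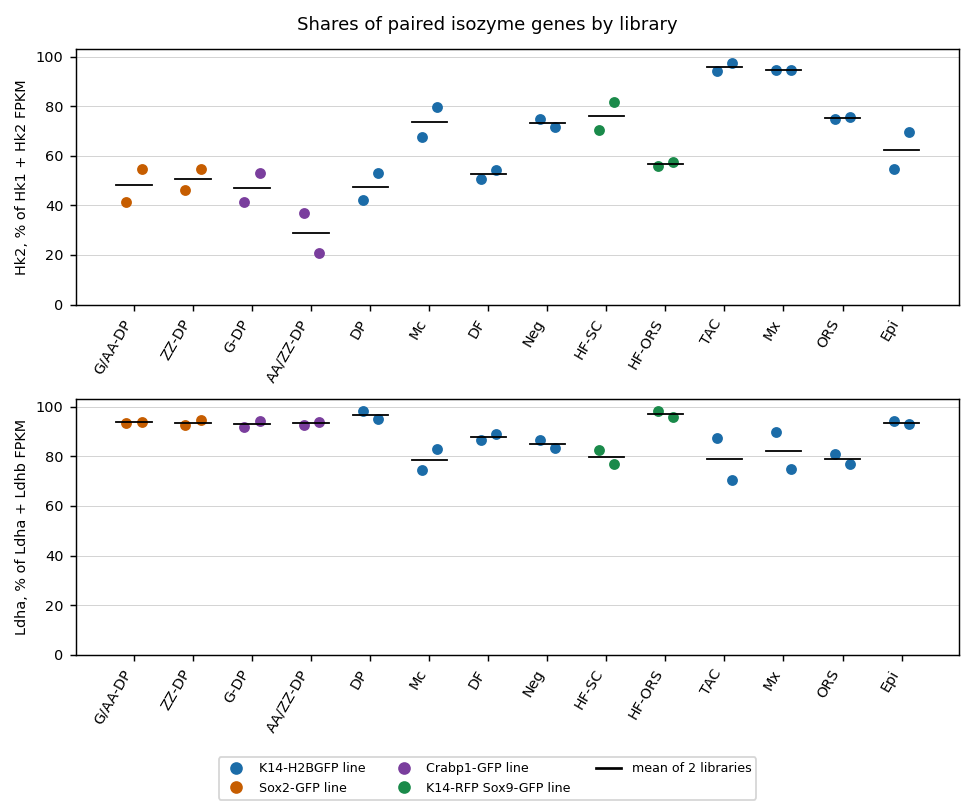
Share (%) of Hk2 in the summed FPKM of Hk1 and Hk2 (upper plot) and of Ldha in that of Ldha and Ldhb (lower plot) in each library, with a bar at the mean of 2 libraries. Hk2 lies above 94% in TAC and Mx and near 50% or below in DP and the papilla subtypes, and Ldha lies above 70% in all libraries.

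The next steps isomerise glucose 6-phosphate (Gpi1, chr7:34201327-34230336), add the second phosphate (Pfkl, the liver-type phosphofructokinase, chr10:77986947-78009807) and cleave the sugar (Aldoa, chr7:126795234-126800994), all on the - strand. Gpi1 was at 74.4 and 76.9 FPKM in Mc, 60.5 and 69.0 in HF-ORS, 56.0 and 44.5 in Epi, and 16.7 and 21.5 in TAC, its lowest population. Its 3 highest populations were separate from one another, and no other steps but Epi over HF-SC were. Pfkl was at 21.5 and 9.01 FPKM in DP, its highest mean, and at 1.81 and 1.43 in Mx, its lowest. The replicates of Pfkl differed by up to 4.07 times (10.6 and 2.61 FPKM in HF-SC), the widest gap among the 10 genes. Its share of the summed FPKM of Pfkl, Pfkm and Pfkp was 56.6% and 40.9% in DP, 57.9% and 51.9% in Mc, and 11.9% and 14.5% in Mx. Aldoa was at 338 and 189.6 FPKM in Mc, 57.5 and 49.7 in TAC, and 232 and 162 in Epi, and Mc and Epi overlapped.

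The payoff steps are catalysed by Gapdh (chr6:125161852-125166467, - strand), which makes NADH, Pgk1 (chrX:106187100-106203699, + strand), which makes ATP, and Eno1 (chr4:150236708-150248879, + strand), which makes phosphoenolpyruvate. Gapdh, often used as a constant reference gene, differed 4.65 times between its highest and lowest mean. It was at 1165 and 927 FPKM in Mc and at 254 and 195 in AA/ZZ-DP. Only the step from Mc to Epi was separate for Gapdh and for Eno1. Pgk1 was at 167 and 177 FPKM in Mc, above all other populations, and at 33.6 and 22.5 in AA/ZZ-DP. Eno1 was at 168.9 and 164 FPKM in Mc and at 47.8 and 36.6 in DF. These genes have processed copies elsewhere in the mouse genome, and reads may have been divided among them. Of the annotated related genes, Aldoart1, Aldoart2 and Pgk2 did not exceed 0.068 FPKM in any library, and Gapdhs did not exceed 1.88.

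Ldha (chr7:46842274-46855627, + strand) encodes the lactate dehydrogenase subunit that favours lactate. It was at 453 and 550.3 FPKM in Mc, above the other populations, and at 151 and 141 in DF, its lowest. The highest mean was 3.44 times the lowest, the narrowest range of the 10 genes. Ldhb, the subunit that favours pyruvate, varied more, so that the Ldha share of the summed Ldha and Ldhb FPKM was 74.5% and 83.0% in Mc and 98.5% and 95.3% in DP. HF-SC had shares of 82.7% and 76.8%, against 98.2% and 96.0% in HF-ORS. The replicates of TAC (87.3% and 70.6%) and Mx (89.7% and 75.1%) differed by more than 10 points.

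Melanocytes were set against dermal fibroblasts, since CD117 separates these Lef1-RFP+ cells of the same line. The genes were higher in Mc than in DF along most of the pathway: 8 of 10 were called higher and 0 lower, where 6.67% of all genes tested were called higher, 11.5% lower and 18.2% either way. The median difference over the 10 genes was 1.65 (log2) and over all genes 0.022. Pgk1 was at 167 and 177 FPKM in Mc, against 50.0 and 37.8 in DF (log2 difference 1.96 ± 0.31 SE, adjusted p 0.000105 in limma). Eno1, at 168.9 and 164 FPKM in Mc and 47.8 and 36.6 in DF, rose by 1.97 ± 0.33 (adjusted p 0.000155). Both genes were well apart from DF in each library.

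Ldha, at 453 and 550.3 FPKM in Mc and 151 and 141 in DF, rose by 1.77 ± 0.30 (log2, adjusted p 0.000201 in limma). Aldoa (1.80 ± 0.33), Hk2 (1.78 ± 0.41), Slc2a1 (1.52 ± 0.32), Gpi1 (1.52 ± 0.27) and Gapdh (1.49 ± 0.32) were the other genes called higher, with adjusted p from 0.000264 to 0.00326. Hk1 averaged 6.93 ± 3.19 FPKM in Mc and 4.31 ± 0.17 in DF (adjusted p 0.541), and Pfkl averaged 13.9 ± 2.81 in Mc and 4.57 ± 0.73 in DF (adjusted p 0.0751), and neither was called. All 10 genes had both Mc libraries above both DF libraries, as did 27.9% of all genes tested, and 54.3% did not overlap in either direction. Gapdh missed the difference of 1 under quantile normalization, at 0.96. Keratinocyte markers summed to 191 and 130 FPKM in Mc, against 1020 and 295 in DF, where 8 of 12 were called lower and 1 higher in Mc, and 8 of 8 pericyte and smooth muscle markers were called lower. The part of these and of the melanocyte markers in DF in these differences was not tested.

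Of 22 other glycolysis genes with a row, 14 were tested, and in Mc against DF 3 were called higher (21.4%, against 6.67% of all genes) and 3 lower (21.4%, against 11.5%). Ldhb rose, with 134 ± 29.9 FPKM in Mc and 20.1 ± 4.50 in DF (log2 difference 2.67 ± 0.42, adjusted p 9.43e-05 in limma), as did Pgam1, the phosphoglycerate mutase gene (263 ± 22.9 and 95.4 ± 4.07), and the pyruvate kinase gene Pkm (114 ± 23.5 and 40.7 ± 10.1). The 3 that fell were forms known from muscle, fat and nerve, Slc2a4 (0.090 ± 0.13 FPKM in Mc and 2.23 ± 0.55 in DF), Pfkm (2.38 ± 0.040 and 7.84 ± 0.13) and Eno2 (0.34 ± 0.43 and 6.65 ± 3.07). The median difference over the 14 genes was 0.68 (log2).

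Dermal papilla cells were set against dermal fibroblasts, the Lef1-RFP+ cells sorted as CD117-/ITGA9-. In DP against DF Slc2a1 was called higher and the other 9 genes were not called, where 2.44% of genes were called higher, 4.25% lower and 6.69% either way. It was at 20.8 and 16.0 FPKM in DP, against 7.77 and 4.97 in DF, a log2 difference of 1.41 ± 0.32 (adjusted p 0.00835 in limma), and the libraries did not overlap. This call did not hold without DP replicate 1 (adjusted p 0.0994) or without DF replicate 2 (adjusted p 0.0887). Ldha was at 306 and 222 FPKM in DP, against 151 and 141 in DF (log2 difference 0.84 ± 0.30, adjusted p 0.113), and Pfkl was at 21.5 and 9.01 in DP, against 5.09 and 4.06 in DF (1.44 ± 0.54, adjusted p 0.131). Neither was called. Of the 10 differences 4 were positive and 6 negative, with a median of -0.12 (log2), against 0.0094 over all genes. Hk1 was lower in DP, at 3.70 and 3.25 FPKM, against 4.18 and 4.43 in DF. Hk2 was lower too, at 2.68 and 3.68 in DP, against 4.30 and 5.29 in DF, and both were not called. Called lower in DP were 10 of 10 melanocyte, 5 of 8 pericyte and smooth muscle, 7 of 12 keratinocyte, 5 of 9 matrix and 6 of 7 Schwann cell markers. Keratinocyte markers summed to 82.3 and 126 FPKM in DP, against 1020 and 295 in DF, and early response genes to 2932 and 2366 in DP, against 1461 and 981 in DF. The part of these in the differences was not tested.

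**Figure D3:**
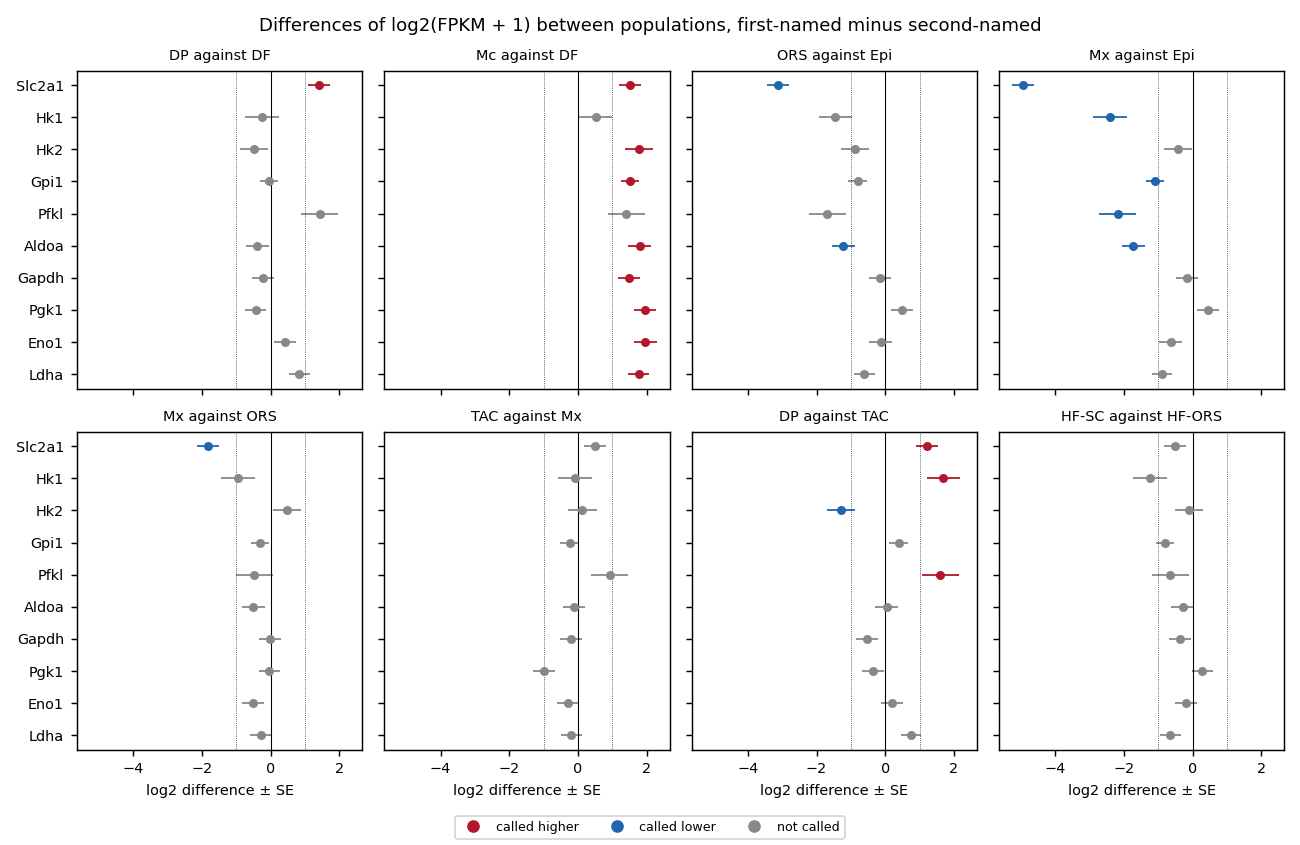
Differences of log2(FPKM + 1) ± SE of the 10 genes in 8 comparisons, first-named minus second-named population (n = 2 libraries each), with dotted lines at a difference of 1 either way and colour for the call. Mc against DF has 8 genes called higher, Mx against Epi has 5 called lower, and Slc2a1 is the called gene farthest from 0, at -4.95.

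Within the epithelium, the outer root sheath and the matrix were set against the epidermis. In ORS against Epi 2 of the 10 genes were called lower and 0 higher, with 5.35% of all genes called higher, 4.48% lower and 9.83% either way. Slc2a1 was at 26.7 and 14.8 FPKM in ORS, against 190.2 and 173 in Epi (log2 difference -3.13 ± 0.32, adjusted p 7.6e-07 in limma). Aldoa was at 96.5 and 70.3 FPKM in ORS, against 232 and 162 in Epi (-1.22 ± 0.33, adjusted p 0.0193), a call lost without Epi replicate 1 (adjusted p 0.228) or ORS replicate 2 (0.215). Pgk1 was the 1 gene with a positive difference, at 94.1 and 75.6 FPKM in ORS and 53.6 and 67.0 in Epi (0.49 ± 0.31, adjusted p 0.467), and was not called. The median difference was -0.85 over the 10 genes and 0.0096 over all genes. Keratinocyte markers summed to 5809 and 5907 FPKM in ORS, against 34982 and 24990 in Epi, where 6 of 12 were called lower in ORS. Early response genes, which react to cell handling, summed to 1377 and 941 in ORS, against 174 and 351 in Epi, and 6 of 10 were called higher. Their part was not tested, and ORS came from a dermal and Epi from an epidermal preparation, which cannot be told apart from cell type.

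In Mx against Epi 5 of the 10 genes were called lower and 0 higher, with 5.12% of all genes called higher, 6.14% lower and 11.3% either way. They were Slc2a1, at 6.11 and 3.93 FPKM in Mx, against 190.2 and 173 in Epi (log2 difference -4.95 ± 0.32, adjusted p 1.75e-09 in limma), and 4 genes of the first steps. Hk1, at 0.42 and 0.53 in Mx and 8.45 and 5.48 in Epi, fell by 2.41 ± 0.49 (adjusted p 0.00179). Pfkl, at 1.81 and 1.43 in Mx and 11.2 and 10.4 in Epi, fell by 2.18 ± 0.54 (adjusted p 0.00923). The libraries of Mx and Epi were far apart for all 3 genes.

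Aldoa, at 60.3 and 55.5 FPKM in Mx and 232 and 162 in Epi, fell by 1.73 ± 0.33 (log2, adjusted p 0.00106 in limma), and Gpi1, at 28.9 and 17.7 in Mx and 56.0 and 44.5 in Epi, fell by 1.11 ± 0.27 (adjusted p 0.00719). Gapdh was at 649 and 437 FPKM in Mx and 723 and 495 in Epi (-0.17 ± 0.32, adjusted p 0.888), and its libraries overlapped. Pgk1 (0.45 ± 0.31), Eno1 (-0.64 ± 0.33), Hk2 (-0.41 ± 0.41) and Ldha (-0.89 ± 0.30, adjusted p 0.0629) were not called either. Pfkl was lost without Epi replicate 1 (adjusted p 0.0669), Epi replicate 2 (0.0506) or Mx replicate 2 (0.08), and Gpi1 without Epi replicate 1 (0.101) or Mx replicate 2 (0.181). With a pseudocount of 5 the Gpi1 difference was -0.99 and missed the difference of 1. Keratinocyte markers summed to 3437 and 3356 FPKM in Mx, against 34982 and 24990 in Epi, and early response genes to 1370 and 821 in Mx, against 174 and 351 in Epi. The part of either was not tested, and the preparations differed as for ORS.

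Among the epithelial sorts of the follicle fewer genes passed. In Mx against ORS 1 of the 10 was called, lower, with 1.2% of genes called higher, 2.64% lower and 3.83% either way. This was Slc2a1, at 6.11 and 3.93 FPKM in Mx and 26.7 and 14.8 in ORS (log2 difference -1.82 ± 0.32, adjusted p 0.00154 in limma). The call was lost without ORS replicate 1 or without Mx replicate 2 (adjusted p 0.0547 each). In TAC against Mx 0 of the 10 were called, with 1.04% of genes called higher, 0.233% lower and 1.27% either way. At an unadjusted p under 0.05, 1 gene passed, which was Pgk1 (30.6 and 54.8 FPKM in TAC, 85.2 and 79.4 in Mx, -0.99 ± 0.31, adjusted p 0.18 in limma). The 95% intervals of the 10 differences ran from -1.64 to 2.05. By their labels TAC is the Lef1-RFP+ part of the K14-H2BGFPLo cells and Mx the K14-H2BGFPLo cells, so Mx may hold TAC cells. The part of this in the differences was not tested.

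Papilla cells were also set against the TAC cells beside them. In DP against TAC 3 of the 10 genes were called higher and 1 lower, with 14.6% of all genes called higher, 12.9% lower and 27.5% either way. Hexokinase forms differed in opposite directions. Hk1 was at 3.70 and 3.25 FPKM in DP, against 0.54 and 0.24 in TAC (log2 difference 1.69 ± 0.49, adjusted p 0.012 in limma), while Hk2 was at 2.68 and 3.68 in DP, against 8.95 and 9.38 in TAC (-1.29 ± 0.41, adjusted p 0.0206). Slc2a1, at 20.8 and 16.0 in DP and 8.19 and 6.49 in TAC, rose by 1.22 ± 0.32 (adjusted p 0.00626). Pfkl, at 21.5 and 9.01 in DP and 7.08 and 2.05 in TAC, rose by 1.60 ± 0.54 (adjusted p 0.0297). The 4 calls rest on few libraries.

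All 4 were lost without DP replicate 1 (adjusted p 0.0682 for Slc2a1, 0.0673 for Hk1, 0.128 for Hk2 and 0.295 for Pfkl). All 4 were also lost without TAC replicate 2 (0.0602 for Slc2a1, 0.0802 for Hk1, 0.0872 for Hk2 and 0.336 for Pfkl), and Hk2 without TAC replicate 1 (0.0755). With a pseudocount of 5, Hk1, Hk2 and Slc2a1 were not called. Cell cycle markers, of which 4 of 12 were called lower, summed to 443 and 240.1 FPKM in DP, against 851 and 776 in TAC, and melanocyte markers to 26.1 and 32.1 in DP, against 293 and 204 in TAC. Their part was not tested.

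The K14-RFP Sox9-GFP line compared the stem cell precursors with HF-ORS, the Sox9-GFP- cells labelled as outer root sheath, which held Krt1 as given above. In HF-SC against HF-ORS 0 of the 10 genes were called by limma, with 2.66% of genes called higher, 1.73% lower and 4.4% either way, and 3 genes passed at an unadjusted p under 0.05. The smallest adjusted p was that of Gpi1, at 41.9 and 31.6 FPKM in HF-SC and 60.5 and 69.0 in HF-ORS (log2 difference -0.81 ± 0.27, adjusted p 0.09), which also missed the difference of 1. Hk1 passed that difference but not the p threshold, at 4.24 and 3.25 in HF-SC and 14.3 and 7.12 in HF-ORS (-1.24 ± 0.49, adjusted p 0.181). Of the 10 differences 9 were negative, with a median of -0.44, against 0 over all genes. The 95% intervals over the 10 genes ran from -2.26 to 0.94. Ldhb was called higher, with 46.5 ± 12.1 FPKM in HF-SC and 8.20 ± 2.98 in HF-ORS (log2 difference 2.38 ± 0.42, adjusted p 0.00176), beside Ldha at 181.7 and 182 in HF-SC and 332 and 246 in HF-ORS (-0.65 ± 0.30, adjusted p 0.281). Keratinocyte markers summed to 11382 and 9147 FPKM in HF-SC, against 23572 and 17038 in HF-ORS.

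HF-ORS and ORS share a label but not a level of Slc2a1, and this comparison was added after the values were seen. In HF-ORS against ORS 3 of the 10 genes were called higher and 0 lower, with 7.12% of all genes called higher, 6.06% lower and 13.2% either way. Slc2a1 was at 174 and 150.0 FPKM in HF-ORS, against 26.7 and 14.8 in ORS (log2 difference 2.96 ± 0.32, adjusted p 1.79e-06 in limma). Hk1 (1.96 ± 0.49, adjusted p 0.00904) was lost without HF-ORS replicate 1 (0.136) or ORS replicate 2 (0.0828), and Gpi1 (1.17 ± 0.27, adjusted p 0.00442) without ORS replicate 2 (0.072). Against the epidermis, HF-ORS had 0 of the 10 called by limma and 0 at an unadjusted p under 0.05, with 2.89% of genes called higher, 1.16% lower and 4.05% either way.

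Mouse line and sort differ between HF-ORS and both of these populations and cannot be told apart from cell type. Keratinocyte markers summed to 23572 and 17038 FPKM in HF-ORS, against 5809 and 5907 in ORS, and 8 of 12 were called higher. Early response genes summed to 5675 and 4278 FPKM in HF-ORS, against 1377 and 941 in ORS and 174 and 351 in Epi, and 7 of 10 were called higher than in ORS and 9 of 10 higher than in Epi. The part of either in the differences was not tested.

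The papilla subtypes gave no calls among the 10 genes. In G/AA-DP against ZZ-DP limma called 0 of the 10, with 0% of genes called higher, 0.00664% lower and 0.00664% either way, and 0 passed at an unadjusted p under 0.05. The differences lay between -0.19 and 0.21 (log2), with 95% intervals from -1.28 to 1.24. The ZZ-DP libraries differed in melanocyte markers, which summed to 35.0 and 768 FPKM, against 124 and 62.4 in G/AA-DP. In G-DP against AA/ZZ-DP limma called 0 of the 10, with 0.412% of genes called higher, 0.093% lower and 0.505% either way, and 2 genes passed at an unadjusted p under 0.05. These were Hk2, at 6.26 and 3.96 FPKM in G-DP and 4.05 and 1.05 in AA/ZZ-DP (0.90 ± 0.41, adjusted p 0.555), and Pgk1, at 38.7 and 56.4 in G-DP and 33.6 and 22.5 in AA/ZZ-DP (0.74 ± 0.31, adjusted p 0.509). The 95% intervals ran from -1.13 to 1.75. Melanocyte markers summed to 1271 and 1295 FPKM in G-DP, against 59.7 and 74.1 in AA/ZZ-DP, and 7 of 10 were called higher. The part of melanocyte RNA in either comparison was not tested.

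The monocarboxylate transporter genes that carry lactate were read beside Slc2a1. Slc16a1 (MCT1) was at 1.86 and 2.11 FPKM in ORS, against 28.1 and 34.3 in Epi (log2 difference -3.43 ± 0.49, adjusted p 4.65e-05 in limma), and it averaged 30.04 ± 6.54 in HF-ORS. Slc16a7 (MCT2) was at 139.7 and 152 FPKM in ORS, against 7.32 and 5.20 in Epi (4.35 ± 0.55, adjusted p 1.11e-05). The transporter genes thus stood in opposite order in these populations. In Mx against Epi Slc16a1 fell (0.27 ± 0.35 and 31.2 ± 4.38, adjusted p 9.59e-07) and Slc16a7 rose (42.3 ± 8.20 and 6.26 ± 1.501, adjusted p 0.00268). In Mc against DF it was Slc16a1 that rose (9.52 ± 1.94 and 2.05 ± 0.58, adjusted p 0.0119) and Slc16a7 that fell (2.54 ± 2.73 and 14.7 ± 5.17, adjusted p 0.00358). Of the 7 genes listed for lactate transport 5 were tested, and Emb, which encodes a partner protein of these carriers, was called higher in ORS against Epi (11.8 ± 4.78 and 0.64 ± 0.064) and in HF-SC against HF-ORS (20.9 ± 5.16 and 2.44 ± 1.91).

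**Figure D4:**
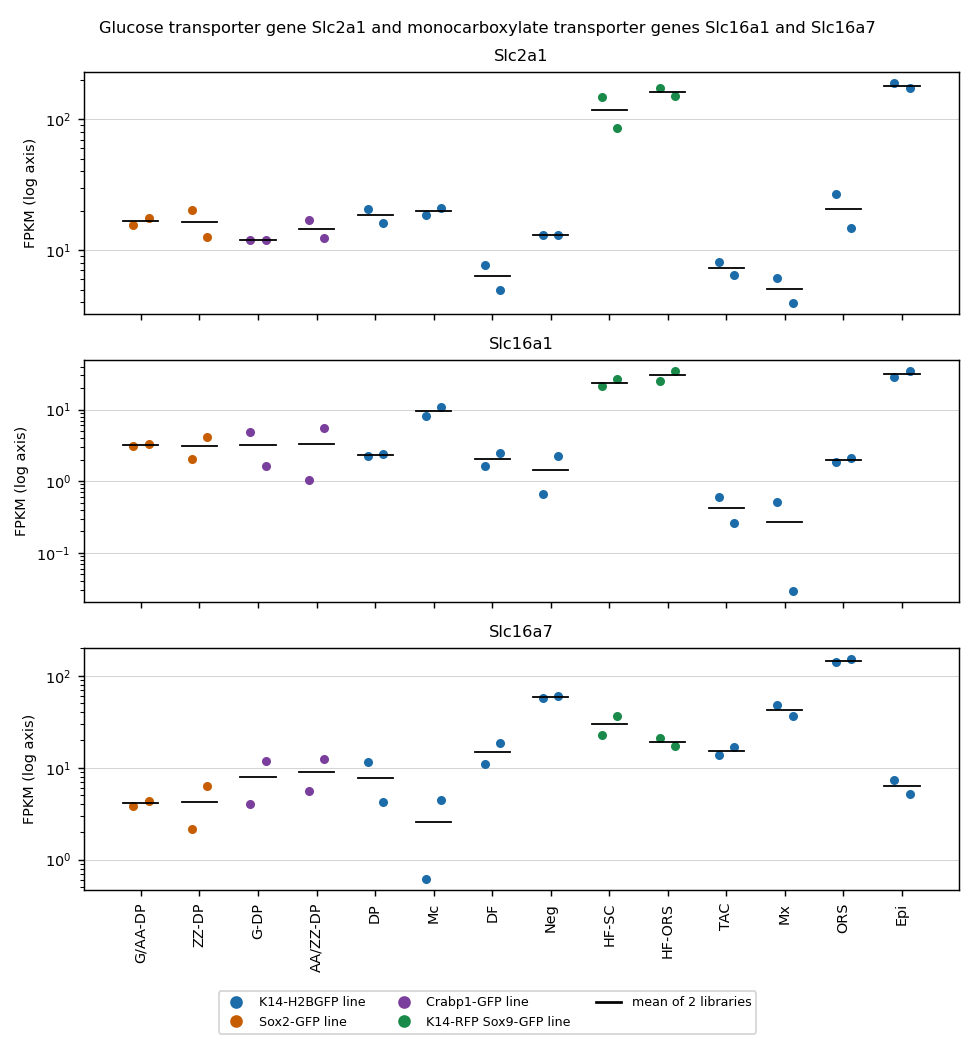
FPKM (log axis) of Slc2a1, Slc16a1 and Slc16a7 in each library of the 14 populations, with a bar at the mean of 2 libraries and colour for the mouse line. Slc2a1 and Slc16a1 are highest in HF-SC, HF-ORS and Epi, whereas Slc16a7 is highest in ORS, at 139.7 and 152 FPKM.

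Likeness between the 10 genes varied from pair to pair. Over the 14 population means of log2(FPKM + 1), which share libraries and their scaling, Pearson's r between members ran from -0.14 (Pfkl and Pgk1) to 0.943 (Gpi1 and Aldoa), with a median of 0.607 over 45 pairs, 16 of them over 0.7 and 4 below 0. Gapdh and Pgk1 (0.898), and Gapdh and Eno1 (0.852), were also close. Among 11250 other genes, those most like Slc2a1 were Krt1 (0.947), Slc16a1 (0.946) and Satb1 (0.946). For Hk1 they were Map4 (0.958), Man2b2 (0.936) and Zfp652 (0.936), and for Hk2 Mapk6 (0.953), Ppp6c (0.922) and Abi1 (0.904). Gapdh was closest to Arl6ip1 (0.963), Coro1c (0.954) and Tmem144 (0.95), and Ldha to Stam2 (0.906), Zfp568 (0.884) and Rab14 (0.872). The closest genes to the remaining 5 were Ccng1 for Gpi1 (0.934), Slc39a1 for Pfkl (0.897), Slc26a2 for Aldoa (0.947), Sub1 for Pgk1 (0.917) and Socs6 for Eno1 (0.93). These likenesses are descriptions over 14 points.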

How the data were processed

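RNA of 28 libraries (14 populations, 2 replicates each) was measured by sequencing. Per the labels' protocols, total RNA with an integrity number of at least 8.8 was used, 6 ng was amplified, and 100.0 ng of cDNA entered each library, so low genes are measured with less certainty. The authors deposited FPKM values in 1 table. Named tools, per the submitters' processing notes, are Bowtie2, TopHat2 2.0.3 and Cufflinks 2.1.1, and the build is mm10. For the annotation, filters and strand setting there is nothing given in the sources used here, so reads of overlapping antisense genes and near-identical copies cannot be told apart.

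Of 23235 rows, 220 identical ones were dropped. The deposited FPKM were used unscaled, although upper quartiles between 10.3 and 11.1 in all libraries leave earlier scaling possible. Low values were checked for whole-fragment steps between libraries: 951 of 3276 triples of libraries closed within 0.06 on the log2 scale (29.0%), so depth was not recovered. Genes reaching 1 FPKM in 2 or more libraries were fitted as log2(FPKM + 1), pseudocount 1, with limma 3.58.1 in R 4.3.3, 1 mean per population and trended empirical Bayes moderation (residual degrees of freedom 14, prior 5.72), so all populations share 1 spread per gene. Tests are two-sided, and p-values were adjusted by Benjamini-Hochberg within each of 10 planned and 2 added comparisons and 2 F-tests. The procedure was tested on simulated data.

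The genes and lists were chosen with earlier results of these data known. All 10 genes are named in each comparison they bear on. Other lists are given as counts called, naming at most the 3 genes with the largest differences in each direction. Likeness was ranked by Pearson's r, giving the top genes whose highest population averaged 5 FPKM or more, without predicted, small RNA or joined names. Alternatives were other pseudocounts, filters, scalings, no trend, a replicate block and leaving out each library.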

Additional observations from a re-analysis of the deposited data

How the results depend on the processing

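The 24 calls among the 10 genes were recomputed under 8 other settings and without each of the 28 libraries in turn, where a lone library is assumed to vary like the other populations. None reversed, 12 held throughout and 12 were lost under at least 1 setting. The cause was not tested. With a pseudocount of 5, 1 gene was called in DP against TAC. Without each library in turn the count called ran from 8 to 9 in Mc against DF, 0 to 1 in DP against DF and in Mx against ORS, 1 to 3 in ORS against Epi, 3 to 5 in Mx against Epi, 0 to 4 in DP against TAC and 1 to 4 in HF-ORS against ORS, and was 0 in the comparisons with no call. It ran from 9 to 10 in the F-test over 8 populations and stayed at 10 over 14.

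The labels repeat the replicate numbers without saying what they pair. Deviations of same-numbered libraries correlated at 0.0574 to 0.275 among K14-H2BGFP populations (27 of 28 pairs over 0.1), at 0.285 for Sox2-GFP, 0.283 for Crabp1-GFP and 0.071 for K14-RFP Sox9-GFP. Pairs of populations from different lines correlated at 0.0382 to 0.291 (34 of 60 over 0.1), so pairing was not taken as given. With the replicate number as a block, 2 genes were called in DP against DF (Pfkl added, adjusted p 0.0154 in limma), 4 in ORS against Epi (Hk1, 0.00331, and Pfkl, 0.00324), 5 in HF-ORS against ORS (Hk2, 0.0273, and Pfkl, 0.00758) and 1, lower, in HF-SC against HF-ORS (Hk1, 0.0188), and Pfkl was added in Mc against DF (0.00725). Over all genes the block called 1125 in HF-SC against HF-ORS (662 without it), 336 in TAC against Mx (191) and 1154 in HF-ORS against Epi (610). The block was fitted within each mouse line. Between lines, as in HF-ORS against ORS or Epi, it therefore compared fitted replicate 1 levels, which is a different contrast. The log2 difference of Pfkl in HF-ORS against ORS was 1.71 with the block and 1.47 without it.

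Counts over all genes moved over 1.5 times with a pseudocount of 5 in DP against DF (668, against 1007), DP against TAC (2628, 4134), Mc against DF (1695, 2738), HF-ORS against ORS (1254, 1983) and HF-ORS against Epi (389, 610), with a pseudocount of 0.1 in G-DP against AA/ZZ-DP (28, 76), with no filter in G/AA-DP against ZZ-DP (4, 1) and with quantile normalization in TAC against Mx (121, 191). With median-ratio scaling the median difference of all genes in Mc against DF was -0.11 (log2), against 0.022 as deposited. This scaling called 689 genes higher and 1940 lower, against 1004 and 1734 as deposited. Without 1 library in turn these counts ran from 522 to 1069 in DP against DF, 13 to 274 in G-DP against AA/ZZ-DP, 1 to 17 in G/AA-DP against ZZ-DP, 192 to 612 in Mx against ORS, 1046 to 1751 in Mx against Epi, 942 to 1520 in ORS against Epi, 51 to 203 in TAC against Mx, 312 to 751 in HF-SC against HF-ORS, 1130 to 2041 in HF-ORS against ORS and 295 to 706 in HF-ORS against Epi. Depth is unknown, so limits from counting cannot be given.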

Other observations

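In DP against TAC 7 of 14 glycogen genes (50.0%) were called higher and 0 lower, where 14.6% of all genes were called higher and 12.9% lower. Phka1, a subunit of phosphorylase kinase, averaged 15.3 ± 0.45 FPKM in DP and 1.14 ± 0.70 in TAC (log2 difference 2.97 ± 0.37, adjusted p 3.39e-06 in limma), and Gyg, which primes glycogen, averaged 12.5 ± 3.73 in DP and 2.58 ± 2.00 in TAC. In ORS against Epi 1 of 14 was called (7.14%, against 9.83% of all genes), the brain-type phosphorylase gene Pygb, with 59.4 ± 8.04 FPKM in ORS and 17.6 ± 4.93 in Epi (adjusted p 0.000321). Fbp1, which reverses the phosphofructokinase step, averaged 20.5 ± 1.03 in Mx, against 1.68 ± 0.014 in ORS (adjusted p 0.00432) and 0.16 ± 0.23 in Epi (adjusted p 3.96e-05). G6pdx, the entry enzyme of the pentose phosphate pathway, averaged 16.8 ± 8.78 FPKM in DP and 81.8 ± 2.91 in TAC (adjusted p 4.18e-05), and 61.8 ± 6.01 in Mx and 22.2 ± 4.74 in ORS (adjusted p 0.0207).

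Of 10 genes of the HIF machinery 2 were called in DP against TAC, both higher, and of 14 HIF targets outside glycolysis 4 were called higher and 2 lower (42.9% in all), where 27.5% of all genes were called. Hif3a averaged 43.7 ± 4.67 FPKM in DP and 0.81 ± 0.30 in TAC (log2 difference 4.63 ± 0.39, adjusted p 4.48e-08 in limma), and the target Vegfa averaged 87.0 ± 15.3 in DP and 3.77 ± 0.49 in TAC (adjusted p 1.24e-07). The target Car12 went the other way, with 2.27 ± 2.59 FPKM in DP and 48.2 ± 5.51 in TAC (adjusted p 2.1e-05). In Mx against ORS Hif1a and Epas1 were both called lower (Hif1a at 9.13 ± 2.09 in Mx and 28.7 ± 6.55 in ORS, adjusted p 0.0301). Of 15 genes of glucose and growth signalling, 2 were called higher and 2 lower in Mx against Epi, and 2 higher and 1 lower in ORS against Epi, where 11.3% and 9.83% of all genes were called in either direction. Mycn averaged 34.9 ± 2.75 FPKM in Mx and 0.77 ± 0.55 in Epi (adjusted p 4.78e-06), while Myc averaged 17.6 ± 3.70 in ORS and 61.4 ± 0.78 in Epi (adjusted p 0.00296). Among 13 genes of pyruvate entry into mitochondria no more than 1 was called in each direction in any comparison.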
